A study of Homo sapiens with 12 samples.

Results

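The 10 genes described here encode plasma membrane transporters of amino acids: SLC7A11, SLC7A5, SLC3A2, SLC7A1, SLC7A3, SLC1A4, SLC1A5, SLC38A1, SLC38A2 and SLC6A9. They were found by symbol. Every probe set whose only gene symbol in the platform annotation was one of these 10 was taken, which gave 366 probe sets. All 10 were measured, among 16648 measured genes. RNA came from 293T cells, an immortal line from human embryonic kidney with the SV40 large T antigen, and was measured on 12 arrays in 4 groups of 3. Control cells carried a non-target hairpin (SHC016), and the other groups carried 1 of 3 short hairpin RNAs against RBFOX2, a regulator of alternative splicing, called shRNA1, shRNA2 and shRNA3. All groups shared lentiviral delivery, the same growth medium and puromycin at 1 ug/mL, which was started at 48 hours after infection and continued over 10 days. The design asks which RNAs change when RBFOX2 is depleted. No parental, uninfected cells are among the groups, and nothing says that the 3 arrays of a group came from separate cultures, so p-values measure the spread between arrays, which may be technical.

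Amino acids cross the plasma membrane through carriers that differ in their substrates and in what drives them. Cystine, large neutral amino acids and cationic amino acids enter through SLC7 proteins, of which the exchangers SLC7A11 and SLC7A5 need the glycoprotein SLC3A2 to reach the surface. Small neutral amino acids, glutamine and glycine enter with sodium through SLC1, SLC38 and SLC6 proteins. When amino acids run short, translation of the transcription factor ATF4 rises, and ATF4 binds with C/EBP partners to elements in many genes of amino acid transport and synthesis. SLC7A11 is also a known target of NRF2, the transcription factor of the antioxidant response.

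The values are log2 probe set signals. A probe set was kept when, averaged over all 12 arrays, it exceeded the 40th percentile, log2 6.53, and a gene value is the mean of its kept probe sets, of which at least 3 were required. Of the 366 probe sets of the transporters, 335 were kept and 31 lay below that level. Signals of different genes come from different probes, so levels are compared between groups and never between genes. A gene was called at an adjusted p below 0.05 by limma, with Benjamini-Hochberg adjustment over all 16648 genes. The standard error (SE) of each change comes from a fit of all 4 groups, with 3 arrays per group. The 3 comparisons against control share the same 3 control arrays. In bulk RNA, fewer cells that express a gene and less RNA per cell cannot be told apart.

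RBFOX2 itself, from 44 probe sets, stood at 9.59, 9.58 and 9.58 in control cells, 8.59, 8.54 and 8.51 in shRNA1 cells, 9.10, 9.11 and 9.16 in shRNA2 cells, and 8.82, 8.84 and 8.85 in shRNA3 cells. The signal left was 48.7% of control with shRNA1, 72.6% with shRNA2 and 59.7% with shRNA3. Array medians lay between 7.24 and 7.27. All 8 genes of the 293T list (VIM, KRT8, KRT18, PAX2, NEFL, NEFM, INA and LIN28B) were measured, with 78% to 100% of their probe sets above the level cutoff. Within that list 4 genes were called with at least 1 hairpin. NEFM changed by 0.25, 0.37 and 0.66 with shRNA1, shRNA2 and shRNA3 and INA by -0.11, -0.26 and -0.49, each called with 2 hairpins, and NEFL (up to 0.40) and KRT8 (up to 0.19) were called with 1. Markers of other cell types were mixed. The share of probe sets above the cutoff ran from 14.3% to 29.4% in 4 leukocyte genes, from 10.4% (ALB) to 64.3% (APOA1) in 4 hepatocyte genes and from 0% (LUM) to 86% (COL1A1) in 5 fibroblast genes, with COL1A2 at 52.3% and PDGFRB at 50%. It ran from 36.4% (EPCAM) to 77.8% (CDH1) in 3 genes of differentiated epithelium and from 59.5% (SLC34A1) to 84.8% (LRP2) in 3 of the proximal tubule. The mean level of these lists in control, shRNA1, shRNA2 and shRNA3 cells was 5.15, 5.05, 5.12 and 5.13 for leukocytes, 5.73, 5.69, 5.76 and 5.79 for hepatocytes, 5.70, 5.67, 5.69 and 5.76 for fibroblasts, 6.65, 6.68, 6.79 and 6.80 for epithelium and 7.25, 7.27, 7.31 and 7.32 for the proximal tubule. Among these genes only CDH1 was called, with 2 hairpins (0.11, 0.31 and 0.31). The part of such shifts in the transporter values was not tested.

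RefSeq (GRCh38.p14) promoter windows, from 250 bases before to 50 bases after a start site, were held for 8 of the 10 genes, with 14 windows in all. SLC7A11 and SLC7A3 had no entry. The 8 letters TGATGNAA, the core of the element that ATF4 and C/EBP factors bind, occurred on either strand in 5 of the 14 windows, 1 in each of 5 genes, against 3.62% of all 35116 promoter windows. The 9 letters TGACNNNGC, the core of the antioxidant response element, occurred in 4 of the 14 windows, 1 each of SLC7A5, SLC3A2, SLC7A1 and SLC1A5, against 13.3% of all windows. The stretches around the 5 matches to TGATGNAA follow. They read 5′ to 3′ on the strand of the gene, with the match in capitals. In SLC3A2 and SLC1A4 the match is on the other strand, so the capitals show its reverse complement.
SLC3A2, chr11:62881719-62881748, plus strand: gtaatgtgcaggactccTTACATCAgctcc
SLC7A1, chr13:29595659-29595711, minus strand: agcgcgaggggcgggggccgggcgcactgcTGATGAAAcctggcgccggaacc
SLC1A4, chr2:64989362-64989428, plus strand: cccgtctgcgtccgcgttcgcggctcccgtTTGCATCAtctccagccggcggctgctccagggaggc
SLC1A5, chr19:46784874-46784941, minus strand: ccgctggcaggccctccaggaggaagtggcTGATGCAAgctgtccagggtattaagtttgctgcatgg
SLC38A1, chr12:46266487-46266550, minus strand: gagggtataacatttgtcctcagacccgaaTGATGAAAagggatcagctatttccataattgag
The match began at base 38 after the start site in SLC3A2 and at base 8 in SLC7A1, counting the start site as base 1. It began 7 bases before the start in SLC1A4, 97 before it in SLC1A5 and 4 before it in SLC38A1. For SLC3A2, SLC1A4, SLC1A5 and SLC38A1, which have several listed start sites, only 1 window each held it. A match describes letters only, and binding there was not measured. Of the 5 genes with it, SLC3A2 and SLC1A5 were called against control with no hairpin. SLC7A1 and SLC38A1 were called with shRNA2 alone, and SLC1A4 with shRNA1 and shRNA2. SLC7A5, SLC38A2 and SLC6A9, whose windows lack it, were called with 2, 1 and 3 hairpins. Any link between a match and a change was not tested.

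Against control, 5 of the 10 transporters were higher with shRNA1 and 8 with shRNA2, but only 2 with shRNA3. Among all genes, 5.99% were called higher with shRNA1, 5.92% with shRNA2 and 12% with shRNA3. None of the 10 was called lower with any hairpin by limma, and at an unadjusted p below 0.05 only SLC3A2 with shRNA3 was lower. Over all genes the share called lower was 4.07%, 8.63% and 14.8%. The median change of the 10 was 0.15, 0.20 and 0.05 on the log2 scale, where the median of all genes was -0.01, 0.00 and 0.02. All 10 changes were above 0 with shRNA1 and with shRNA2, and 6 of 10 with shRNA3. SLC7A3 and SLC6A9 were called higher with all 3 hairpins, as were 2.50% of all genes, and 2.17% of all genes were called lower with all 3. These rises were modest: the largest was 1.45-fold.

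**Figure D1:**
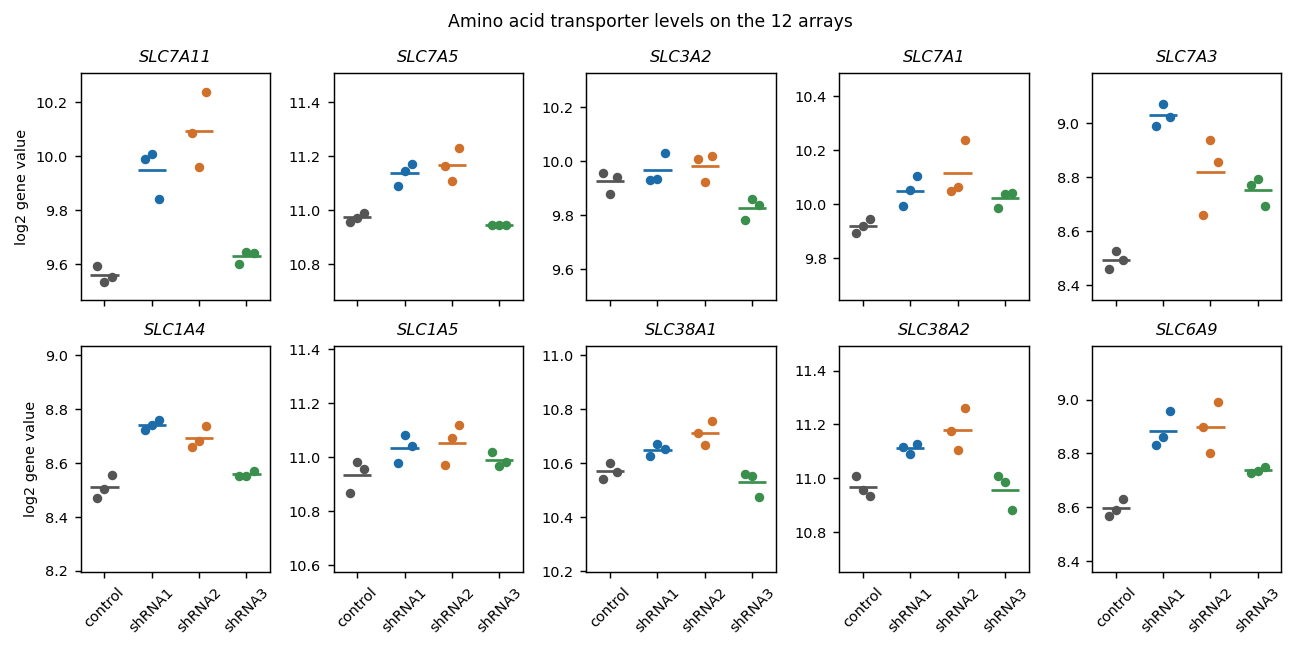
Gene values (log2) of the 10 transporters on each of the 12 arrays, by group, with points for arrays and a line for the group mean; each panel has its own axis of equal span. SLC7A11 is near 10 with shRNA1 and shRNA2 but between 9.60 and 9.65 with shRNA3, close to the controls at 9.54 to 9.60.

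SLC7A11, the cystine and glutamate exchanger that feeds glutathione synthesis, showed the widest gap between hairpins. Its value, from 27 probe sets, was 9.60, 9.54 and 9.55 in control cells, 9.99, 10.01 and 9.84 in shRNA1 cells, 10.08, 9.96 and 10.24 in shRNA2 cells, and 9.60, 9.65 and 9.64 in shRNA3 cells. Every shRNA1 and shRNA2 array stood above every control and every shRNA3 array, while the shRNA3 arrays began where the controls ended. The rise was 0.39 with shRNA1 (1.31-fold; adjusted p = 0.00192) and 0.53 with shRNA2 (1.45-fold; adjusted p = 0.000196), with an SE of 0.06. With shRNA3 the difference was 0.07 (95% interval -0.06 to 0.20; adjusted p = 0.399). Both rises kept their call under all 23 alternative settings. In order of level, shRNA2 came first, then shRNA1, shRNA3 and control; the differences between the upper pair (0.15, adjusted p = 0.302) and between the lower pair did not pass the test.

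SLC7A5, which exchanges large neutral amino acids such as leucine, changed less than SLC7A11, again higher with shRNA1 and shRNA2, and was near control with shRNA3. It read 10.96, 10.97 and 10.99 in control cells, 11.09, 11.15 and 11.17 in shRNA1 cells, 11.16, 11.11 and 11.23 in shRNA2 cells, and 10.95, 10.95 and 10.94 in shRNA3 cells. The shRNA1 and shRNA2 arrays lay above the control range and the shRNA3 arrays just below it. The change was 0.16 (SE 0.04; 1.12-fold; adjusted p = 0.0146) with shRNA1, 0.19 (1.14-fold; adjusted p = 0.00466) with shRNA2 and -0.03 (adjusted p = 0.580) with shRNA3. The call with shRNA1 was lost without control replicate 1, shRNA1 replicate 2 or shRNA1 replicate 3 (adjusted p up to 0.0697), and with the median of probe sets (0.0654).

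SLC3A2, the heavy chain that SLC7A11 and SLC7A5 share, passed the test with none of the hairpins. Its 43 probe sets gave 9.96, 9.88 and 9.94 in control cells, 9.93, 9.94 and 10.03 in shRNA1 cells, 10.01, 9.92 and 10.02 in shRNA2 cells, and 9.78, 9.86 and 9.84 in shRNA3 cells. The shRNA1 and shRNA2 arrays overlapped the controls, whereas all shRNA3 arrays were below them. The difference was 0.04 (95% interval -0.05 to 0.13) with shRNA1, 0.06 (-0.03 to 0.14) with shRNA2 and -0.10 (-0.19 to -0.01; adjusted p = 0.0824) with shRNA3. The intervals for shRNA1 and shRNA2 end below the fitted rises of either light chain with the same hairpins. They overlap the intervals of SLC7A5, 0.08 to 0.24 with shRNA1 and 0.12 to 0.27 with shRNA2, but not those of SLC7A11. A difference in change between these genes was not tested. Of the 3 promoter windows of SLC3A2, 1 holds both motifs searched, as does the window of SLC7A1.

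Of the cationic transporters, which carry arginine and lysine, SLC7A3 rose with every hairpin. Its 23 probe sets gave 8.46, 8.53 and 8.49 in control cells, 8.99, 9.07 and 9.02 in shRNA1 cells, 8.66, 8.94 and 8.85 in shRNA2 cells, and 8.77, 8.79 and 8.69 in shRNA3 cells. All 9 knockdown arrays exceeded the highest control. The change was 0.53 (SE 0.06; 1.45-fold; adjusted p = 0.000153), 0.32 (1.25-fold; adjusted p = 0.00306) and 0.26 (1.20-fold; adjusted p = 0.00550) with shRNA1, shRNA2 and shRNA3, and each call held under all 23 alternatives. The shRNA2 arrays were the most scattered, and replicate 1 of that group lay below all shRNA3 arrays.

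SLC7A1, the more widely expressed cationic transporter, read 9.89, 9.92 and 9.95 in control cells, 9.99, 10.05 and 10.10 in shRNA1 cells, 10.05, 10.06 and 10.24 in shRNA2 cells, and 9.98, 10.04 and 10.04 in shRNA3 cells. No knockdown array reached down to the controls. Only the change with shRNA2 was called, 0.20 (SE 0.05; 1.15-fold; adjusted p = 0.0150), and this call was lost without control replicate 1 (adjusted p = 0.0592) and from the 2 groups alone (adjusted p = 0.0593). With shRNA1 and shRNA3 the differences were 0.13 (95% interval 0.03 to 0.23; adjusted p = 0.0972) and 0.10 (0.00 to 0.20; adjusted p = 0.120). Without shRNA2 replicate 3, which enters the shared estimate of the spread, both were called (adjusted p = 0.0320 and 0.0422).

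SLC1A4, an exchanger of alanine, serine and cysteine, was 8.47, 8.50 and 8.56 in control cells, 8.72, 8.74 and 8.76 in shRNA1 cells, 8.66, 8.68 and 8.74 in shRNA2 cells, and 8.55, 8.55 and 8.57 in shRNA3 cells. The first hairpins cleared the controls and shRNA3 did not. It rose by 0.23 (SE 0.03; 1.17-fold; adjusted p = 0.00135) and 0.18 (1.13-fold; adjusted p = 0.00399) with shRNA1 and shRNA2, and the difference with shRNA3 was 0.05 (adjusted p = 0.283). Both calls held under all 23 alternatives.

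SLC1A5, the glutamine exchanger of the same family, was not called with any hairpin. Values were 10.87, 10.98 and 10.96 in control cells, 10.98, 11.08 and 11.04 in shRNA1 cells, 10.97, 11.07 and 11.12 in shRNA2 cells, and 11.02, 10.97 and 10.98 in shRNA3 cells. Every group overlapped the controls, of which replicate 1 was the lowest. The differences were 0.10 (95% interval 0.00 to 0.20), 0.12 (0.02 to 0.22) and 0.05 (-0.04 to 0.15), so a rise of the size seen in SLC1A4 with shRNA2 lies within the interval for shRNA2. Without shRNA2 replicate 1 the difference with shRNA2 was called (0.16; adjusted p = 0.0212).

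The sodium-coupled neutral amino acid transporters SLC38A1 and SLC38A2 were called with shRNA2 alone. SLC38A1 was 10.54, 10.60 and 10.57 in control cells, 10.63, 10.67 and 10.65 in shRNA1 cells, 10.71, 10.67 and 10.76 in shRNA2 cells, and 10.56, 10.55 and 10.48 in shRNA3 cells. SLC38A2, which cells raise when starved of amino acids, was 11.01, 10.96 and 10.94 in control cells, 11.12, 11.09 and 11.13 in shRNA1 cells, 11.17, 11.11 and 11.26 in shRNA2 cells, and 11.01, 10.99 and 10.88 in shRNA3 cells. In both genes the shRNA1 and shRNA2 arrays stood above all controls, and the shRNA3 arrays overlapped them. With shRNA2 SLC38A1 rose by 0.14 (SE 0.04; 1.10-fold; adjusted p = 0.0180) and SLC38A2 by 0.21 (SE 0.04; 1.16-fold; adjusted p = 0.00755). The SLC38A1 call was lost without control replicate 1, control replicate 3 or shRNA2 replicate 3 (adjusted p up to 0.0729), with the median of probe sets (0.216) and from the 2 groups alone (0.0707). The SLC38A2 call was kept under all 23 alternatives. With shRNA1 the changes were 0.08 (adjusted p = 0.176) and 0.15 (adjusted p = 0.0509). The latter sat at the threshold: it was called under 8 of 23 alternatives, among them those without shRNA2 replicate 1, 2 or 3 or shRNA3 replicate 3 (adjusted p from 0.0309 to 0.0481).

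SLC6A9, the glycine transporter GLYT1, read 8.57, 8.59 and 8.63 in control cells, 8.83, 8.86 and 8.96 in shRNA1 cells, 8.90, 8.80 and 8.99 in shRNA2 cells, and 8.73, 8.73 and 8.75 in shRNA3 cells. Again no knockdown array overlapped the controls, with shRNA3 in between. The rises were 0.29 (SE 0.05; 1.22-fold; adjusted p = 0.00252), 0.30 (1.23-fold; adjusted p = 0.00163) and 0.14 (1.10-fold; adjusted p = 0.0379). The first pair held under all 23 alternatives. The call with shRNA3 was lost under 11 of them, including those without any 1 of the control replicates 1, 2 and 3, the shRNA3 replicates 1, 2 and 3 or shRNA1 replicate 2 (adjusted p up to 0.118). In each of these 7 cases 1 transporter was left as called with shRNA3, and 1 with all 3 hairpins.

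**Figure D2:**
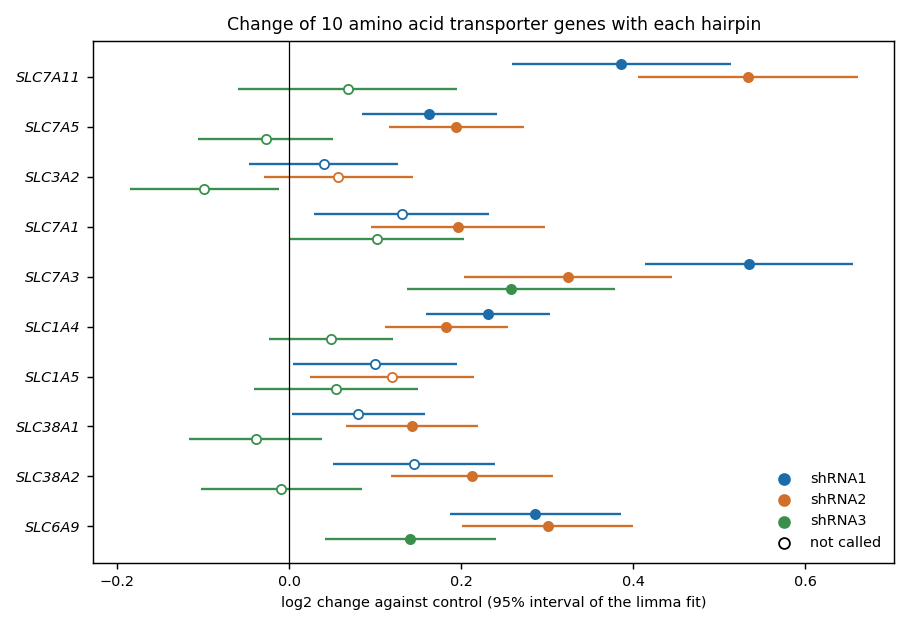
Log2 change of each transporter gene against control with shRNA1, shRNA2 and shRNA3; points are fitted changes, bars are 95% intervals, filled points passed an adjusted p below 0.05 and open points did not. The shRNA3 points lie left of the shRNA1 and shRNA2 points for all 10 genes, and SLC7A3 and SLC6A9 have 3 filled points.

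The arrays were also counted without a fit. Every shRNA1 array was above every control for 8 of the 10 transporters, all but SLC3A2 and SLC1A5, where 16.1% of all genes met that condition. With shRNA2 it was met by the same 8, against 12.6% of all genes. With shRNA3 it was met by 4 (SLC7A11, SLC7A1, SLC7A3 and SLC6A9), against 24.3%. These 4 were above control on all 9 knockdown arrays, as were 5.50% of all genes. In SLC7A5 and SLC3A2 every shRNA3 array was below every control. The share of all genes below control in this way was not counted, so this is a description only. Averaged over the 10 genes, arrays stood above the control mean by 0.18, 0.22 and 0.23 with shRNA1, by 0.19, 0.19 and 0.30 with shRNA2 and by 0.05, 0.06 and 0.04 with shRNA3, and control arrays by -0.01, 0.00 and 0.01. Replicate 3 of shRNA2 was the highest array.

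The hairpins were then set against each other. No transporter was called between shRNA2 and shRNA1 by limma, where 1.19% of all genes were called in either direction. At an unadjusted p below 0.05 there were 2, SLC7A11 (0.15 higher with shRNA2) and SLC7A3 (-0.21; adjusted p = 0.106). The SLC7A3 difference was called without shRNA2 replicate 2 (-0.27; adjusted p = 0.0325). Against shRNA1, 5 of 10 were lower with shRNA3, and 4.15% of all genes were: SLC7A11 (-0.32; adjusted p = 0.00798), SLC7A5 (-0.19; 0.00918), SLC7A3 (-0.28; 0.0130), SLC1A4 (-0.18; 0.00704) and SLC38A2 (-0.15; 0.0488). Against shRNA2, 6 of 10 were lower, and 2.02% of all genes: SLC7A11 (-0.47; adjusted p = 0.000494), SLC7A5 (-0.22; 0.00399), SLC38A1 (-0.18; 0.0133), SLC38A2 (-0.22; 0.0133), SLC1A4 (-0.13; 0.0396) and SLC3A2 (-0.16; 0.0491). All 10 differences were below 0 in both comparisons, with medians of -0.15 and -0.16 against 0.02 and 0.01 for all genes.

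The SLC7A11 difference held in both comparisons under all 23 alternatives. Calls near the threshold did not. SLC38A2 against shRNA1 was lost under 14 of 23, which include leaving out any 1 of the control, shRNA1 or shRNA3 arrays (adjusted p up to 0.162). SLC3A2 against shRNA2 was lost under 18, which include leaving out any 1 array other than shRNA1 replicate 3 and shRNA2 replicate 2 (adjusted p up to 0.176). SLC1A4 against shRNA2 was lost under 13, which include leaving out control replicate 2, shRNA2 replicate 3 or any 1 of the shRNA1 or shRNA3 arrays (adjusted p up to 0.130). Against shRNA1, SLC7A3 was lost without shRNA1 replicate 2 or shRNA3 replicate 3 (adjusted p of 0.0589 and 0.0640). Against shRNA2, SLC38A1 and SLC38A2 were lost without shRNA2 replicate 3 or shRNA3 replicate 3 (adjusted p up to 0.0694). The count against shRNA1 was 3 without shRNA1 replicate 2 or shRNA3 replicate 3, and 8 without shRNA2 replicate 2 or 3, when SLC3A2, SLC38A1 and SLC6A9 were added (adjusted p up to 0.0456). The count against shRNA2 was 2 without shRNA2 replicate 3 or shRNA3 replicate 3.

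The order of the hairpins in the transporters was not their order in RBFOX2. The least RBFOX2 signal was left with shRNA1 and the most with shRNA2, with shRNA3 in between. Yet the mean transporter change was largest with shRNA1 and shRNA2, which were not called apart for any of the 10 genes, and smallest with shRNA3. The level was higher with shRNA2 than with shRNA1 for 8 of 10 genes, and for 53% of all genes. None of the 8 differences was called. Without shRNA2 replicate 3 the sign turned in SLC7A5, SLC3A2, SLC1A5 and SLC6A9.

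**Figure D3:**
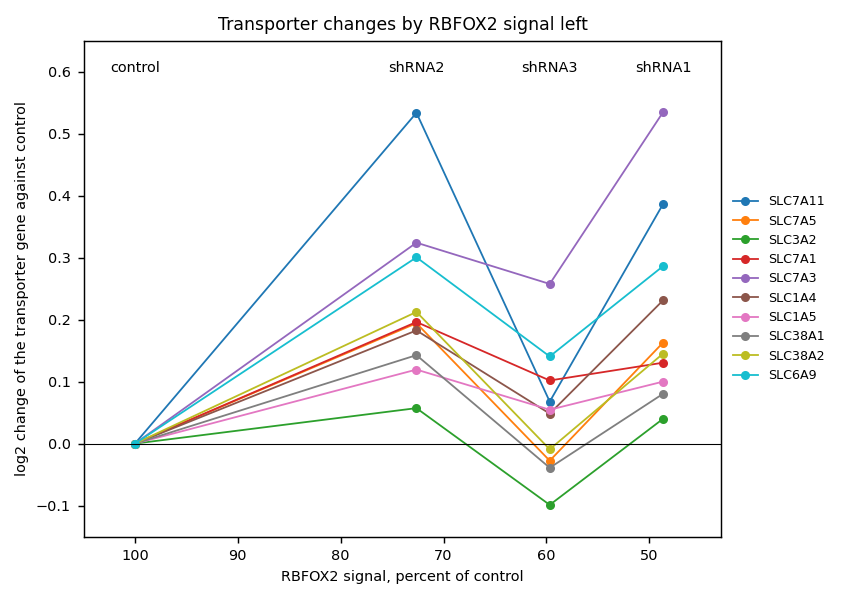
Log2 change of each transporter gene against control (vertical axis) by the RBFOX2 signal left, in percent of control (horizontal axis, falling to the right); each line joins 1 gene's values at control, shRNA2, shRNA3 and shRNA1. All 10 lines dip at shRNA3, at 59.7%, between shRNA2 at 72.6% and shRNA1 at 48.7%.

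The single probe sets show how evenly the changes ran along each gene. All 27 kept probe sets of SLC7A11 were above control with shRNA1 and with shRNA2, and 20 with shRNA3. In SLC7A5, 24 and 25 of 25 were above control with shRNA1 and shRNA2, but 7 with shRNA3. Of the 23 of SLC7A3, 20 were higher with all 3 hairpins, as were 28 of 34 in SLC7A1 and 38 of 49 in SLC6A9. SLC3A2 was mixed, with 28, 33 and 7 of 43 above control. SLC38A2 had 32, 36 and 20 of 36 above control, SLC38A1 36, 40 and 20 of 45, SLC1A4 25, 25 and 20 of 33, and SLC1A5 17, 19 and 14 of 20. In SLC6A9 the exon probe set PSR01040315.hg.1, at 11.95 in control cells, changed by -0.02, -0.01 and -0.03, whereas the median of the gene's probe sets was 0.34, 0.35 and 0.14. Relative to the rest of the gene that exon differed by -0.31 with shRNA2 (adjusted p = 0.0443 by limma), short of the 1.5-fold needed for a call. It was chosen after its values were seen, and it was not the only such exon. In SLC1A4 the exon probe set PSR02005677.hg.1, at 12.48 in control cells, changed by -0.12, -0.01 and -0.14. Relative to its gene it differed by -0.36 with shRNA1 (adjusted p = 0.0221 by limma). Of all 335 kept probe sets, 2, 3 and 1 passed that adjusted p with shRNA1, shRNA2 and shRNA3, whatever their fold.

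**Figure D4:**
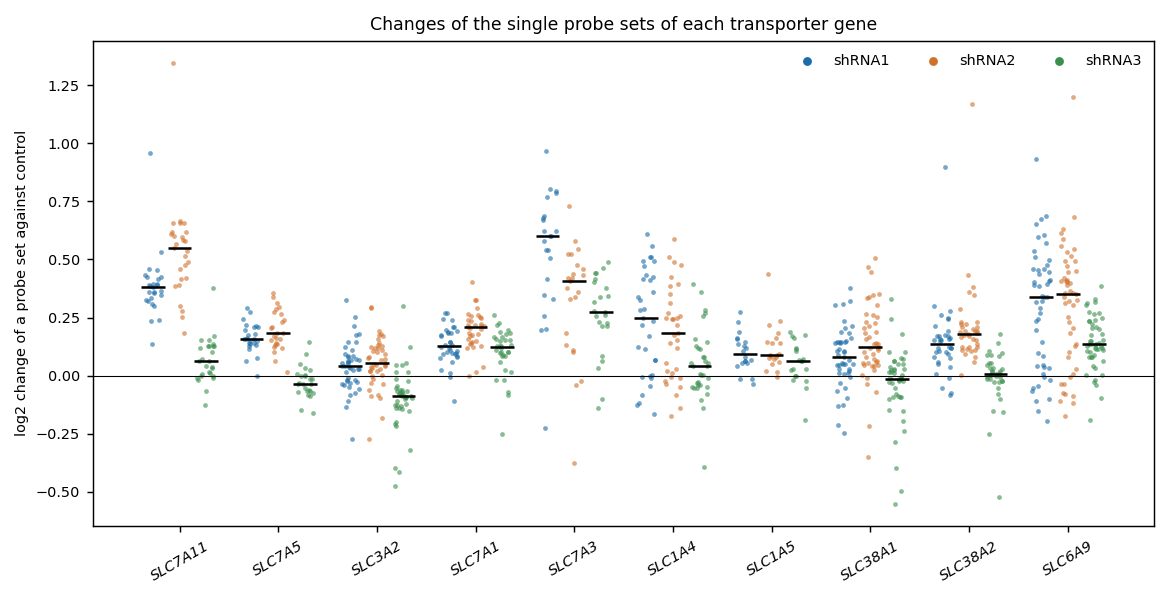
Log2 change of each kept probe set of the 10 transporter genes against control, by hairpin; each point is 1 probe set and black lines are medians. The median for SLC7A11 is 0.38 with shRNA1, 0.55 with shRNA2 and 0.06 with shRNA3.

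A splicing index, the value of a probe set less the average of its gene's other kept probe sets, was used to look for unequal change within a gene. It was called at an adjusted p below 0.05 over 417377 probe sets with at least a 1.5-fold difference. Of the 335 probe sets of the transporters, 1 was called with shRNA1, 2 with shRNA2 and 0 with shRNA3 (limma), and among all probe sets 0.129%, 0.220% and 0.195% were called. At an unadjusted p below 0.05 there were 80 (23.9%), 78 (23.3%) and 43 (12.8%), against 13.2%, 18.7% and 15.9% of all probe sets. None was called with all 3 hairpins. The one called with shRNA1 and again with shRNA2 was the SLC7A3 exon probe set PSR0X015213.hg.1. Its level was 7.60, 7.35 and 7.54 in control cells, 7.21, 7.32 and 7.29 in shRNA1 cells, 7.01, 7.42 and 6.92 in shRNA2 cells, and 7.48, 7.20 and 7.38 in shRNA3 cells. While the rest of the gene rose, this exon did not, so its index changed by -0.79 (SE 0.12; adjusted p = 0.0201) and -0.73 (adjusted p = 0.0247), and by -0.42 (adjusted p = 0.121) with shRNA3. The other, with shRNA2, was the SLC6A9 junction JUC01021609.hg.1. It read 5.94, 6.23 and 5.67 in control cells, below the level cutoff, 6.60, 6.91 and 7.12 in shRNA1 cells, 7.27, 6.78 and 7.38 in shRNA2 cells, and 5.97, 6.34 and 6.23 in shRNA3 cells. Its mean over the 12 arrays, 6.54, passed the cutoff only through the shRNA1 and shRNA2 arrays where it is high, so its index, 0.92 above control with shRNA2, 0.66 with shRNA1 and 0.10 with shRNA3, is given as a description and its call supports nothing. Of all 335 kept probe sets, 4 had a control mean below the cutoff, 2 of them in SLC6A9 and 1 each in SLC3A2 and SLC1A4.

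These splicing index calls were few and not firm. With shRNA1 the count was 0 without control replicate 1 or 3 or without any 1 of shRNA1 replicates 1, 2 and 3. With shRNA2 it was 0 without control replicate 1, control replicate 3 or shRNA2 replicate 3, 4 without shRNA2 replicate 2, and 1 with the replicate number as a block. Some junctions moved far without passing the test. The SLC7A11 junction JUC04011591.hg.1 went from 8.24, 8.08 and 7.74 on the control arrays to 8.96, 9.04 and 8.92 with shRNA1 and 9.81, 8.85 and 9.43 with shRNA2, and was 8.55, 8.25 and 8.39 with shRNA3. Its index with shRNA2 was 0.84 above control (adjusted p = 0.0537). The SLC38A2 junction JUC12010318.hg.1 was 9.44, 9.55 and 8.99 on the control arrays and 11.11, 9.92 and 10.45 with shRNA2, a spread of over 1 log2 unit within that group, and its index was 0.98 above control (adjusted p = 0.0762). In the other 6 genes no index differed from control by more than 0.53 with any hairpin.

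Among all measured genes, those with the pattern nearest to SLC7A11 over the 12 arrays, by the root mean square difference of values set to the control mean, were HHIP, a hedgehog antagonist (0.0881), CHAC1, a glutathione-degrading enzyme of the ATF4 pathway (0.0884), and NHSL1 (0.106). With shRNA1, shRNA2 and shRNA3, HHIP changed by 0.32, 0.44 and 0.10, CHAC1 by 0.35, 0.45 and 0.10 and NHSL1 by 0.32, 0.52 and 0.21. Nearest to SLC7A5 were WHAMMP3 (0.0334), the isoleucyl-tRNA synthetase IARS1 (0.0357) and KIAA1328 (0.0398). WHAMMP3 changed by 0.15, 0.20 and 0.02, IARS1 by 0.17, 0.19 and 0.03 and KIAA1328 by 0.17, 0.19 and 0.01. Nearest to SLC3A2 were NUMB (0.0296), KLHL11 (0.0317) and NAA25 (0.0318), with changes between -0.11 and 0.07.

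Other gene lists of the same biology were counted in the same way. Of 20 genes of the amino acid response, all measured, 15 (75%) were higher with shRNA1, 16 (80%) with shRNA2 and 9 (45%) with shRNA3. Over all genes these shares were 5.99%, 5.92% and 12%. Higher with all 3 were 8 (40%), against 2.50% of all genes, and none of the 20 was called lower. Their medians were 0.23, 0.23 and 0.11. CTH, which makes cysteine from cystathionine, was 9.11, 9.17 and 9.11 in control cells, 9.57, 9.80 and 9.74 in shRNA1 cells, 9.69, 9.82 and 10.01 in shRNA2 cells, and 9.66, 9.65 and 9.54 in shRNA3 cells. It rose by 0.57, 0.71 and 0.48 (SE 0.07). DDIT3, a stress transcription factor, rose by 0.73, 0.60 and 0.28 (SE 0.07), ATF3 by 0.54, 0.53 and 0.32 (SE 0.08) and the asparagine synthetase ASNS by 0.49, 0.49 and 0.30 (SE 0.06). In this list, as in the transporters, shRNA3 had the fewest calls. Called lower with shRNA3 than with shRNA1 were 5 members (25%), against 4.15% of all genes. The list was chosen with earlier results of these data known.

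Of 12 NRF2 targets, genes of the antioxidant response, 10 were measured, so 1 call is 10% of the list. Called higher were 0 with shRNA1, 0 with shRNA2 and 1 with shRNA3, against 5.99%, 5.92% and 12% of all genes. Called lower were 1 (10%), 1 (10%) and 2 (20%), against 4.07%, 8.63% and 14.8% of all genes. HMOX1, which degrades heme, was lower by -0.22 with shRNA1 (adjusted p = 0.00496) and by -0.13 with shRNA2 (adjusted p = 0.0431). GCLM, a subunit of the enzyme of the first step of glutathione synthesis, gave -0.20, -0.09 and -0.17, NQO1 gave -0.09, -0.09 and -0.16, and neither was called. TXNRD1, a thioredoxin reductase, was called lower with shRNA3 (-0.16; adjusted p = 0.0211).

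Of 36 other amino acid transporters of the plasma membrane 35 were measured, and few were called. With shRNA1 there were 2 higher and 1 lower, with shRNA2 there were 2 each way, and with shRNA3 there were 2 higher and 3 lower. These shares lie near or below those of all genes. The one member higher with all 3 hairpins was SLC43A1, a carrier of large neutral amino acids. It was 9.22, 9.36 and 9.26 in control cells, 9.67, 9.60 and 9.64 in shRNA1 cells, 9.41, 9.71 and 9.64 in shRNA2 cells, and 9.68, 9.61 and 9.58 in shRNA3 cells. The change was 0.35, 0.31 and 0.34 (SE 0.06), without the dip at shRNA3 seen in the 10 transporters. SLC36A1, a proton-coupled transporter, was lower with shRNA2 (-0.14; adjusted p = 0.0213) and shRNA3 (-0.23; adjusted p = 0.00106), the taurine transporter SLC6A6 was higher with shRNA2 (0.18; adjusted p = 0.0240), and SLC38A4 gave 0.17, 0.18 and 0.01 without a call.

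**Figure D5:**
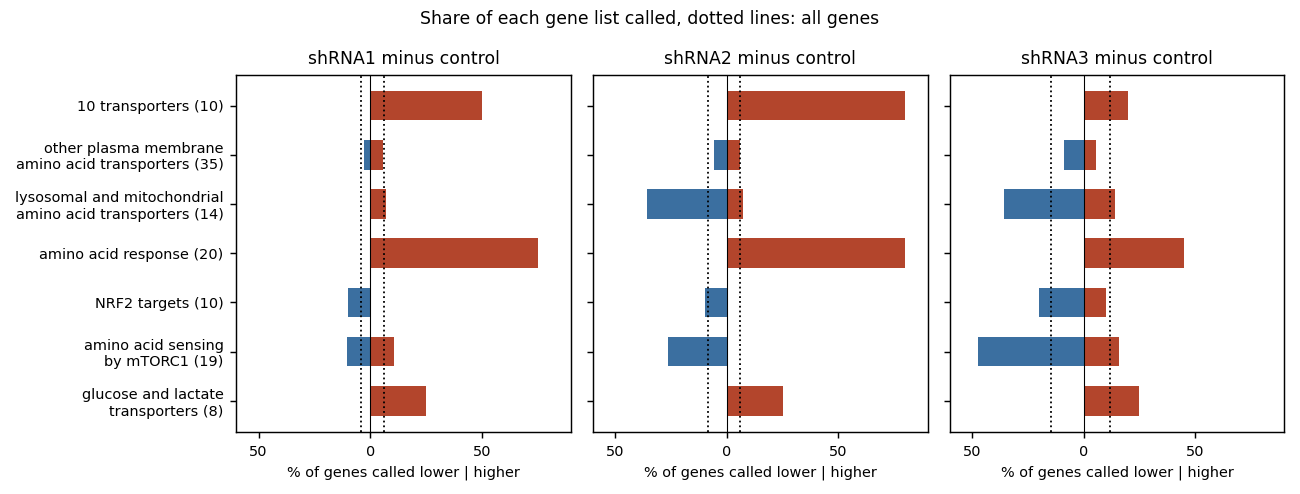
Share of the measured genes of each list called higher (red, right) or lower (blue, left) with each hairpin, in percent; numbers in brackets are measured genes and dotted lines mark the shares of all genes. The 10 transporters and the amino acid response list reach 80% higher with shRNA2, and the other plasma membrane amino acid transporters 5.71%.

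Of the amino acid transporters of the lysosome and mitochondria, 14 were measured among 16 listed. With shRNA1 0 were lower and 1 higher, with shRNA2 5 (35.7%) and 1, and with shRNA3 5 (35.7%) and 2. Over all genes, too, more were called lower than higher with shRNA2 (8.63%) and shRNA3 (14.8%). SLC25A44, the mitochondrial carrier of branched-chain amino acids, was 9.02, 8.91 and 9.04 in control cells, 8.78, 8.71 and 8.89 in shRNA1 cells, 8.75, 8.46 and 8.59 in shRNA2 cells, and 8.46, 8.53 and 8.58 in shRNA3 cells. It was lower on every knockdown array and fell by 0.39 (SE 0.07; adjusted p = 0.00239) with shRNA2 and by 0.47 (adjusted p = 0.000400) with shRNA3. The lysosomal cystine exporter CTNS fell by 0.24 (SE 0.06; adjusted p = 0.0155) and 0.28 (adjusted p = 0.00404) with the same hairpins. The aspartate and glutamate carrier SLC25A13 was lower with both as well, and the lysosomal transporter SLC15A4 was higher with all 3 (0.18, 0.10 and 0.14).

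Of the genes through which mTORC1 senses amino acids, 19 were measured among 23 listed. With shRNA1 2 (10.5%) were lower and 2 higher, with shRNA2 5 (26.3%) and 0, and with shRNA3 9 (47.4%) and 3. Over all genes the share called lower rose in the same order, 4.07%, 8.63% and 14.8%. Lower with all 3 were LAMTOR4 (-0.19, -0.19 and -0.17; SE 0.04) and the GTPase regulator FLCN (-0.18, -0.20 and -0.16; SE 0.04). RRAGC, a Rag GTPase, was lower with shRNA2 (-0.27; adjusted p = 0.00212) and shRNA3 (-0.35; adjusted p = 0.000221), and WDR59 was higher with shRNA1 (0.19) and shRNA3 (0.21). Among 8 glucose and lactate transporters, 2 (25%) were higher with each hairpin, against 5.99%, 5.92% and 12% of all genes. These were SLC2A1, with changes of 0.26, 0.19 and 0.33 (SE 0.06), and SLC2A3, with 0.77, 0.60 and 0.66 (SE 0.11). Like SLC43A1, both rose least with shRNA2, so they too lacked the low value with shRNA3. SLC16A7 and SLC5A2 were not called.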

How the data were processed

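RNA of 293T cells was measured on 12 arrays with exon and exon-exon junction probe sets. Per the submitters' processing notes, Affymetrix Expression Console was used with RMA. For these, no version, setting or genome build is given in the sources used here. The deposited values are on a log2 scale, as their range shows, and were used as they are. Of 914585 entries, 1530 controls were left out. Of the rest, 672085 probe sets had 1 gene symbol in the platform annotation, 39483 had several and 201487 had none, and only the first were used for genes. Of 22085 symbols, 2474 were updated through RefSeq names (GRCh38.p14, names only), and 26130 probe sets identical to another of their gene were left out as copies.

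Gene values, the splicing index (genes with at least 4 kept probe sets) and their thresholds were computed as given above. Two-sided tests were run with lmFit and eBayes of limma 3.58.1 under R 4.3.3, reading the values with data.table (1.17.8), on all genes or probe sets, with group as the only term. The steps were tested on simulated data. Same-numbered control and shRNA2 arrays deviated together over genes (r of 0.202, 0.432 and 0.264), and those of no other pair of groups all did. A fit with the replicate number as a block is therefore given where it changed a count by more than 1.5 times. Alternatives were 11 other settings and leaving out each of the 12 arrays. The number of arrays limits the precision.

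The 10 transporters and all other lists and tests were chosen with earlier results of these data known. By the naming rule, all 10 were named, with at most 4 genes per other list by the size of the mean change over the 3 hairpins, the 3 genes nearest in pattern to SLC7A11, SLC7A5 and SLC3A2, and probe sets called relative to their gene or, without a call, those with the largest change in splicing index. The SLC6A9 probe set PSR01040315.hg.1 and the SLC1A4 probe set PSR02005677.hg.1 were chosen after their values were seen. Protein sequences and genome coordinates of probe sets were not used here.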

Additional observations from a re-analysis of the deposited data

Results flagged for a closer look

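The probe sets below the level cutoff enter no gene value. Of the 31 such probe sets of the transporters, 4 junctions (12.9%) had every knockdown array above every control array, and none had every knockdown array below. Among all genes this held for 1.02% above and 1.16% below, of 222716 probe sets under the cutoff. The lowest hairpin mean, which lies above the control arrays in each case, was 5.70 for the SLC7A11 junction JUC04011590.hg.1 (control mean 3.90, 6.15 with shRNA1 and 6.29 with shRNA2). For the SLC7A3 junctions it was 5.02 in JUC0X007685.hg.1 (control 3.91, then 5.44 and 5.30) and 6.09 in JUC0X007692.hg.1 (control 5.42, then 6.29 and 6.20). For the SLC6A9 junction JUC01021610.hg.1 it was 5.05 (control 4.55, then 5.22 and 5.51). In all 4 the lowest hairpin mean was that of shRNA3, and no hairpin mean reached the cutoff of 6.53. These signals were not tested. Groups of 3 arrays were not examined for outlying arrays.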

How the results depend on the processing

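The calls of SLC7A11, SLC1A4 and SLC6A9 with shRNA1 and shRNA2, of SLC7A3 with all 3, of SLC7A5 and SLC38A2 with shRNA2 and of SLC7A11 between shRNA3 and the other hairpins kept their direction and their side of the threshold under all 23 alternatives. The cause of the following changes was not tested. With no level filter, with the median of probe sets, with exon probe sets only or with array medians centred, 1 transporter in place of 2 was called with shRNA3 and with all 3 hairpins. Between shRNA3 and shRNA1 the count of 5 became 2 with the median of probe sets, 8 with array quality weights and 8 from the 2 groups alone. Between shRNA3 and shRNA2 the count of 6 became 1 with the median and 2 from the 2 groups alone. With the median, SLC7A5 and SLC1A4 were among the calls lost against both (adjusted p from 0.0915 to 0.469). The splicing index count with shRNA1, 1, became 0 with no level filter and with a cutoff at the 60th percentile. That with shRNA2, 2, became 0 with no level filter or from the 2 groups alone, 1 with exon probe sets only, with array quality weights or with the replicate block, and 4 with a trended and robust eBayes. The replicate block changed no other count by more than 1.5 times. It lost the calls of SLC38A2 between shRNA3 and shRNA1 and of SLC3A2 between shRNA3 and shRNA2, and added SLC6A9 to the latter comparison. Leaving out 1 array gave 4 to 7 called transporters with shRNA1, 6 to 9 with shRNA2, 1 to 3 with shRNA3, 1 to 3 with all 3, 0 to 1 between shRNA2 and shRNA1, 3 to 8 between shRNA3 and shRNA1 and 2 to 7 between shRNA3 and shRNA2. Splicing index counts then were 0 to 1 with shRNA1 and 0 to 4 with shRNA2. The number of genes called by all 3 hairpins, 779, ranged from 242 (without control replicate 1) to 1233 (without shRNA2 replicate 1), and was 294 with the median of probe sets and 453 with no level filter. The sign turned only in differences near 0 that were not called: for shRNA2 minus shRNA1, SLC3A2 gave -0.00351 and SLC6A9 -0.000379 with no level filter, and SLC6A9 -0.00481 with the median. With the median, SLC3A2 gave -0.00276 with shRNA1, SLC7A5 0.0165 with shRNA3 and SLC38A2 0.0264 with shRNA3, and SLC38A2 with shRNA3 was 0.000552 after quantile normalization. When 1 array was left out, SLC38A2 with shRNA3 ranged from -0.0336 to 0.0286. Likewise shRNA2 minus shRNA1 ranged from -0.000846 to 0.0617 in SLC7A5, from -0.000276 to 0.0497 in SLC3A2, from -0.0135 to 0.0608 in SLC1A5 and from -0.0333 to 0.0624 in SLC6A9.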
